A study of Mus musculus with 4 samples.

Results

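The 7 genes described here encode subunits of the GABA-A receptor and were chosen by name: Gabra2, Gabra3, Gabra4, Gabra5, Gabrb1, Gabrb2 and Gabrd. They are 7 of the 29224 genes in the deposited count table, and another 12 genes of the table encode the other subunits of the family. RNA was sequenced from cells of the cerebral cortex of mice at postnatal day 5, which had been taken up as astrocytes with magnetic beads carrying an antibody to GLAST (ACSA-1), a glutamate transporter of the astrocyte surface. The 2 Ezh2 f/f libraries came from mice with floxed alleles of Ezh2, the catalytic subunit of Polycomb repressive complex 2. The 2 Ezh2 cKO libraries came from offspring of such mice crossed with Aldh1l1-icre mice, in which Cre recombinase is driven by the promoter of an astrocyte gene, so that the floxed alleles were common to all 4 libraries. Sex, litter and the number of animals behind each library were not given in the sources used here. Cre activity outside astrocytes was not measured.

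GABA-A receptors are chloride channels opened by the transmitter GABA, and each is assembled from several subunits. Alpha and beta subunits together form the GABA binding site, a gamma subunit brings the receptor to synapses, and the delta subunit takes its place in receptors outside synapses that carry a steady, tonic current, often together with the subunit of Gabra4. In the rodent cortex the make-up changes after birth, and receptors rich in the subunits of Gabra3 and Gabra5 are typical of the immature tissue. Neurons express most of these genes, and glial cells express some of them.

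The libraries held 16273308 to 17522152 counted reads, and the 3 counts taken as the limit of detection, for counting error only, equal 0.170 to 0.191 CPM (counts divided by the size of the library and put on a common scale, with sizes adjusted by TMM normalization). The spread within each group exceeded sampling noise (the chi-square statistic was 9.70 and 6.10 times its degrees of freedom), and no source says that they came from separate animals, so that p-values measure only the spread between these libraries. Counts of Ezh2 were 434 and 327 in the controls and 211 and 164 after deletion (log2 fold change -1.11, SE 0.16). The markers did not match a pure astrocyte preparation: the neuronal tubulin gene Tubb3 had an FPKM (fragments scaled to gene length and library size) of 1207 to 1897, against 11.1 to 36.5 for Slc1a3, which encodes GLAST. The 16 pan-neuron markers split into 12 higher and 3 lower in Ezh2 cKO, with summed CPM of 9150 and 9851 for Ezh2 f/f against 11569 and 11566. Of 13 astrocyte genes, 11 were higher and 0 lower, with summed CPM of 650 and 707 against 3490 and 3183. Higher and lower genes numbered 2 and 5 of 9 excitatory neuron genes (1273 to 1438 CPM in Ezh2 f/f against 3800 to 4055 in Ezh2 cKO), and 3 and 6 of 12 interneuron genes (720 to 798 and 677 to 681 CPM). They numbered 8 and 0 of 8 oligodendrocyte precursor genes (194 to 199 and 575 to 646 CPM), 7 and 0 of 7 tested oligodendrocyte genes (83.8 to 96.1 and 744 to 869 CPM) and 10 and 0 of 10 microglial genes (109 to 111 and 288 to 340 CPM). For 8 endothelial genes they were 3 and 1 (229 to 237 and 230 to 267 CPM), for 6 mural genes 2 and 1 (141 to 143 and 222 to 244 CPM) and for 8 progenitor genes 1 and 7 (238 to 265 and 127 to 128 CPM). None of the marker genes for neurons or astrocytes was at or under 3 counts in every library. The part of these cell types in the results that follow was not tested, and more cells of a type cannot be told apart from more RNA per cell.

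Most of the family lies in clusters, so that neighbouring genes are described together. By the deposited coordinates, Gabrg1, Gabra2, Gabra4 and Gabrb1 follow each other on chromosome 5, with Gabra2 at 71114940 to 71253192 and Gabra4 at 71727092 to 71815651, both on the minus strand, and Gabrb1 at 71815456 to 72306380 on the plus strand. Gabra5 lies at 57057420 to 57159807 on chromosome 7 (minus strand) beside Gabrg3, Gabrb2 at 42310584 to 42519855 on chromosome 11 (plus strand) beside Gabra6, and Gabra3 at 71476287 to 71700454 on chromosome X (minus strand) between Gabre and Gabrq. Gabrd lies at 155469437 to 155482569 on the minus strand of chromosome 4, far from Gabrr1 and Gabrr2 on the same chromosome. The build of these coordinates could not be settled: the submitters' processing notes name mm9, and none of the 7 positions was the same in GENCODE M21 on GRCm38. As deposited, Gabra4 and Gabrb1 overlap head to head by 196 bases. In GENCODE M21 they share 46 exon bases, which is 0.756% of the Gabra4 exons and 0.332% of the Gabrb1 exons, and Gabra5 shares 148 of its 2974 exon bases (4.98%) with Gm9962 on the other strand. Whether reads were counted by strand is not given in the sources used here, so that a small part of these counts may belong to the partner gene.

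Stretches of 250 bases before RefSeq gene starts on GRCm38.p6 were taken as promoters for 6 of the 7 genes, with 10 starts in all. Those of 4 genes are shown because they range from none to many CG dinucleotides, the sites of DNA methylation and a feature of many Polycomb-bound promoters. Each is written 5′ to 3′ on the strand of its gene with CG in capitals. They lie at chr5:71095850-71096099 for Gabra2 (minus strand) and chrX:72656920-72657169 for Gabra3 (minus strand, the first of its 2 starts). That of Gabra4 is chr5:71658309-71658558 (minus strand). That of Gabrb1 is chr5:71699682-71699931 (plus strand, the second of its 2 starts, since the stretch before the first lies within Gabra4). The Gabra4 stretch lies in turn within Gabrb1, which spans 71658113 to 72149037 in GENCODE M21.
Gabra2: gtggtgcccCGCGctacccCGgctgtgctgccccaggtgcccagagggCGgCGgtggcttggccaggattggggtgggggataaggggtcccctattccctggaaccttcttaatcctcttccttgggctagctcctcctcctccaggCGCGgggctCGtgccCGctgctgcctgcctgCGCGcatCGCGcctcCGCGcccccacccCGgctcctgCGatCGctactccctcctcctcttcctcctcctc
Gabra3: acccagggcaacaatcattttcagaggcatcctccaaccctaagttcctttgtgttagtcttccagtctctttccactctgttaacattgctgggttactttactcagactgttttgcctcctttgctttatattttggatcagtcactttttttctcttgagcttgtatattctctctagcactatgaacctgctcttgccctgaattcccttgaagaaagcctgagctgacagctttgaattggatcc
Gabra4: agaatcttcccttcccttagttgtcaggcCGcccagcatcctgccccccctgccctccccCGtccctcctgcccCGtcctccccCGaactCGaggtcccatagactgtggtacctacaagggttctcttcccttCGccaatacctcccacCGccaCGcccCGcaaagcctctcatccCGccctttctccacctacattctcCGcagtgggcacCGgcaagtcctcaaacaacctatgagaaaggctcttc
Gabrb1: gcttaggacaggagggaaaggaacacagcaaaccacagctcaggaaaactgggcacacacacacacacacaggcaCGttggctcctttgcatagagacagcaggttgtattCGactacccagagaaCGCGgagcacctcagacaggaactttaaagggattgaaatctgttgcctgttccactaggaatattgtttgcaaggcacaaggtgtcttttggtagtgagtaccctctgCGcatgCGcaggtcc
The Gabra2 stretch held 18 CG dinucleotides, Gabra4 had 12, the printed Gabrb1 stretch 6 and its other start 18, while both Gabra3 stretches, which overlap, had 0. Gabra5 had 9 and the 3 starts of Gabrb2 had 8, 8 and 4, beside a median of 6 over 32851 promoters of the same length. The GC box (GGGCGG, either strand), a site for Sp-family factors, matched once before Gabra2, at 2 places before Gabra4 and once before 1 start of Gabrb2, and 32.7% of all promoters held it. The cAMP response element (TGACGTCA) and the EGR site (GCGTGGGCG) matched in none of the 10 stretches, and 1.55% and 0.536% of all promoters held them. The E-box (CANNTG, 66.2% of all promoters) matched before Gabra2, Gabra5 and 1 start of Gabrb2. TATAAA (12.4% of all promoters) matched before 1 start of Gabrb2, 30 bases upstream, and on the other strand before both starts of Gabra3. The Gabra3 match is the same site in both stretches. A match is a run of letters only and was not tied to binding of a factor.

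All 7 genes were higher in Ezh2 cKO than in Ezh2 f/f. In the edgeR quasi-likelihood test over all genes, all 7 passed an adjusted p (Benjamini-Hochberg) under 0.05 with a higher level in Ezh2 cKO, where 34.7% of the 16793 tested genes did so. The median of their log2 fold changes was 1.57 (range 0.70 to 2.49), beside 0.02 over all tested genes. In each of them both Ezh2 cKO libraries lay above both Ezh2 f/f libraries, as they did in 42.8% of tested genes. At least a 2-fold rise was seen in 5 of the 7, and 19% of tested genes rose by as much and passed the test. The rises fell into a large one, of more than 5-fold, for Gabra4, Gabrb1 and Gabrd, an intermediate one for Gabra2 and Gabrb2, and a smaller one for Gabra3 and Gabra5.

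**Figure D1:**
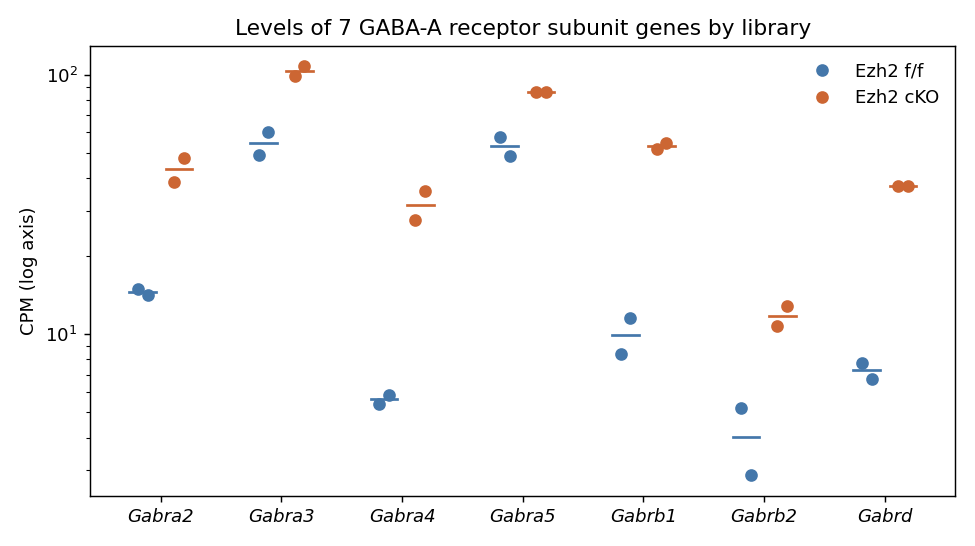
CPM of the 7 genes in each of the 4 libraries, on a log axis; points are libraries (blue Ezh2 f/f, orange Ezh2 cKO) and short lines are group means. In every gene the 2 Ezh2 cKO libraries lie above the 2 Ezh2 f/f libraries, with the widest gaps for Gabra4, Gabrb1 and Gabrd.

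Among the alpha genes, Gabra4, whose product joins the delta subunit in tonic receptors, was counted 92 times in each Ezh2 f/f library, and 487 and 617 times in Ezh2 cKO. The Ezh2 f/f libraries were low and alike, and both Ezh2 cKO libraries stood far above them. Its level went from 5.62 ± 0.331 to 31.6 ± 5.65 CPM (SD, n = 2), which is 2.49 on the log2 fold scale (SE 0.17, adjusted p = 1.65e-08 in edgeR). Gabra2, which encodes a subunit of synaptic receptors, was counted 255 and 223 times in Ezh2 f/f, then 683 and 829 times in Ezh2 cKO. The groups did not overlap, and the spread was wider between the Ezh2 cKO libraries. Its level went from 14.6 ± 0.522 to 43.3 ± 6.44 CPM (SD, n = 2), which is 1.57 on the log2 fold scale (SE 0.13, adjusted p = 1.39e-07 in edgeR).

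Gabra3 and Gabra5 were the alpha genes with the most reads in Ezh2 f/f. Gabra3, prominent in the immature cortex, was counted 841 and 944 times in Ezh2 f/f, then 1748 and 1868 times in Ezh2 cKO. Its lowest Ezh2 cKO library was well above its highest Ezh2 f/f library. The level went from 54.7 ± 7.66 to 103 ± 6.13 CPM (SD, n = 2), which is 0.92 on the log2 fold scale (SE 0.11, adjusted p = 4.90e-06 in edgeR). Gabra5, whose product is found mainly outside synapses, was counted 984 and 763 times in Ezh2 f/f, against 1517 and 1494 times in Ezh2 cKO. The Ezh2 cKO libraries were almost equal and the Ezh2 f/f libraries were further apart, still without overlap. Its level went from 53.1 ± 6.40 to 86.1 ± 0.132 CPM (SD, n = 2), which is 0.70 on the log2 fold scale (SE 0.10, adjusted p = 3.57e-05 in edgeR), the smallest of the 7.

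Of the beta genes, Gabrb1 was counted 144 and 181 times in Ezh2 f/f, and 910 and 949 times in Ezh2 cKO. Both Ezh2 cKO libraries were high and close together. Its level went from 9.98 ± 2.18 to 53.2 ± 2.23 CPM (SD, n = 2), which is 2.42 on the log2 fold scale (SE 0.14, adjusted p = 4.28e-09 in edgeR). Gabrb2, whose product is common in receptors of the adult brain, had the fewest reads, namely 89 and 45 in Ezh2 f/f, then 189 and 223 in Ezh2 cKO. Its Ezh2 f/f libraries differed the most, relative to their level, of any of the 7 genes. The level went from 4.04 ± 1.66 to 11.8 ± 1.52 CPM (SD, n = 2), which is 1.54 on the log2 fold scale (SE 0.24, adjusted p = 6.28e-05 in edgeR). The log2 fold change of Gabrb2 was 2.04 without Ezh2 f/f replicate 1, the highest of all the alternatives tried for it. Without Ezh2 f/f replicate 2 it was 1.16, and the lowest value was 0.85, with limma on log2(FPKM + 1).

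Gabrd, the only delta subunit gene, was counted 133 and 106 times in Ezh2 f/f, then 658 and 645 times in Ezh2 cKO. The Ezh2 cKO libraries agreed closely, and each was far above both Ezh2 f/f libraries. Its level went from 7.27 ± 0.736 to 37.3 ± 0.0660 CPM (SD, n = 2), which is 2.36 on the log2 fold scale (SE 0.14, adjusted p = 4.80e-09 in edgeR).

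Pan-neuron genes were also higher in sum, so the libraries were scaled to the summed counts of the 16 pan-neuron genes as an alternative. This scaling lowered the median of all tested genes to -0.27 on the log2 scale, with 24.7% of genes higher and 43.7% lower, where TMM gave 34.7% and 33.6%. All 7 genes kept a higher level and passed the edgeR test, with log2 fold changes of 2.21 for Gabra4, 2.14 for Gabrb1 and 2.07 for Gabrd. This is not a correction for the number of neurons, since 11 of the 16 pan-neuron genes were still higher and 4 lower (median 0.67), while Tubb3, the largest part of their sum in CPM, fell by 0.71 under TMM. The values were 1.28 for Gabra2, 1.24 for Gabrb2, 0.64 for Gabra3 and 0.41 for Gabra5, the last with an adjusted p of 0.00737, so that Gabra3 and Gabra5 lay below the pan-neuron median. Under TMM that median was 0.95, and Gabra3 and Gabra5 lay below it as well. Over all 13 alternatives each of the 7 stayed higher and past the threshold.

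**Figure D2:**
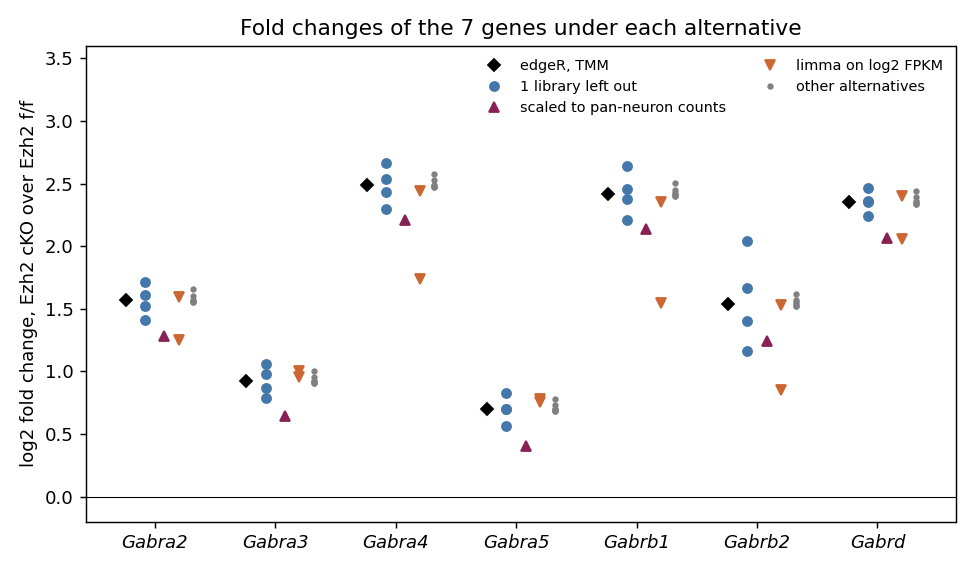
Log2 fold change of Ezh2 cKO over Ezh2 f/f for the 7 genes in the edgeR fit (black diamonds), with 1 library left out (blue circles), scaled to pan-neuron counts (purple triangles), by limma on log2 FPKM (orange triangles) and under the other alternatives (grey points). Every point lies above 0, with Gabra5 lowest at 0.41 under pan-neuron scaling and Gabra4 highest at 2.66 with 1 library left out.

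The other 12 subunit genes were read from the same fit. Of these, 7 were tested, 6 were higher and 0 lower, with a median log2 fold change of 1.16. Among all tested genes 34.7% were higher and 33.6% lower. Gabrg1, a gamma gene, rose by 1.23 (adjusted p = 5.55e-04 in edgeR) and Gabrq, which encodes the theta subunit, by 1.79 (adjusted p = 2.08e-04) from 0.820 and 1.21 CPM. Gabrg3 rose by 0.44 (adjusted p = 0.00656 in edgeR). With pan-neuron scaling Gabrg3 did not pass the edgeR test (0.16, adjusted p = 0.328). Under that scaling 4 of the 7 tested genes were higher, beside 24.7% of all tested genes. Gabre, the epsilon gene, did not pass (log2 fold change -0.80, SE 0.50, adjusted p = 0.168), and Gabra6, Gabrp, Gabrr1, Gabrr2 and Gabrr3 had at most 5 counts in any library and were not tested.

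**Figure D3:**
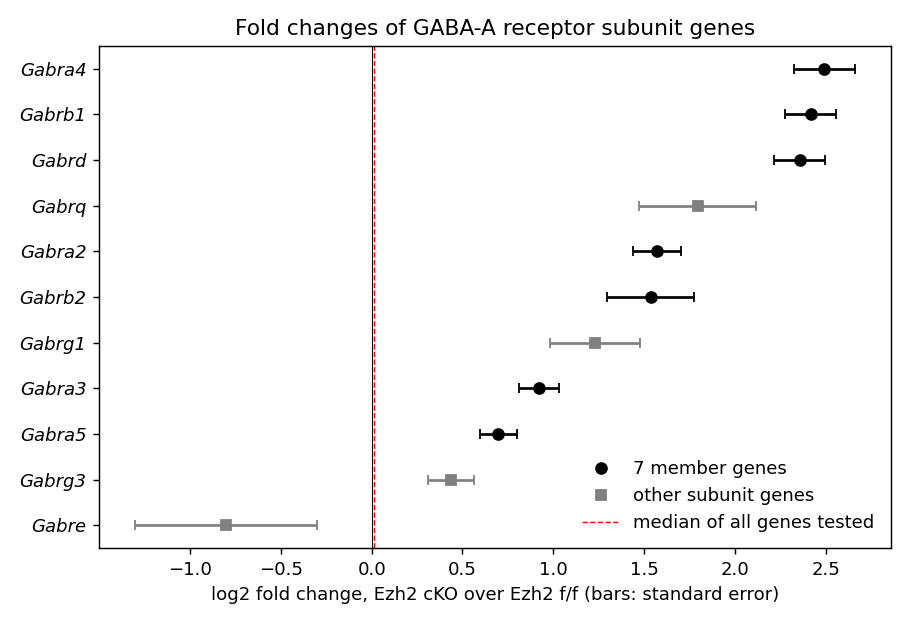
Log2 fold change of Ezh2 cKO over Ezh2 f/f for the 7 genes (black circles) and for Gabrg1, Gabrg3, Gabrq and Gabre (grey squares), with the standard error of the edgeR fit as bars; the dashed line is the median of all tested genes (0.02). The 7 genes run from 0.70 to 2.49, and Gabre (-0.80) is the one point below 0.

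FPKM, which is scaled to gene length, allowed the subunits to be compared with each other. Among the 7 genes in Ezh2 f/f, the highest mean FPKM was that of Gabra5 (17.3), followed by Gabra3 (13.5), Gabrd (2.45), Gabra2 (1.85) and Gabra4 (0.896), each apart from the next. Gabrb1 (0.699) and Gabrb2 (0.617) came last, and their libraries overlapped. In Ezh2 cKO the order was Gabra5 (29.8), Gabra3 (27.1) and Gabrd (13.3), then Gabra2 (5.83) and Gabra4 (5.35), which overlapped, and last Gabrb1 (3.95) and Gabrb2 (1.91), which stood apart. The order of the 7 genes was thus alike in both groups, while Gabrd came closer to the leading alpha genes. Summed over genes, the FPKM of the alpha class was 34.6 and 34.2 in Ezh2 f/f against 71.5 and 79.2 in Ezh2 cKO, a ratio of 2.19, and the corresponding ratios were 1.48 for the beta, 2.14 for the gamma and 5.43 for the delta class.

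Since the genes rose unequally, the make-up within each class differed between the groups. Gabra5 gave 54.5% and 46.0% of the alpha FPKM in Ezh2 f/f, against 41.2% and 38% in Ezh2 cKO. Gabra4 gave 2.49% and 2.71% in Ezh2 f/f against 6.46% and 7.68% in Ezh2 cKO. Gabra2 gave 5.50% and 5.24%, then 7.22% and 8.21%. In these genes the groups did not overlap, with Gabra5 at a smaller share and Gabra2 and Gabra4 at larger ones in Ezh2 cKO. The share of Gabra3 overlapped between the groups (35.3% and 43.2% against 36.0% and 36.0%). Within the beta class Gabrb1 went from 2.44% and 3.55% to 11.7% and 11%, and Gabrb2 from 3.27% and 1.92% to 5.30% and 5.65%. Gabrd made up 3.86% and 3.37% of the FPKM of all 19 subunit genes in Ezh2 f/f against 10.0% and 9.18% in Ezh2 cKO. With 2 libraries against 2 an exact permutation test (two-sided) cannot give a p below 0.333, so that shares and ratios are descriptions.

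**Figure D4:**
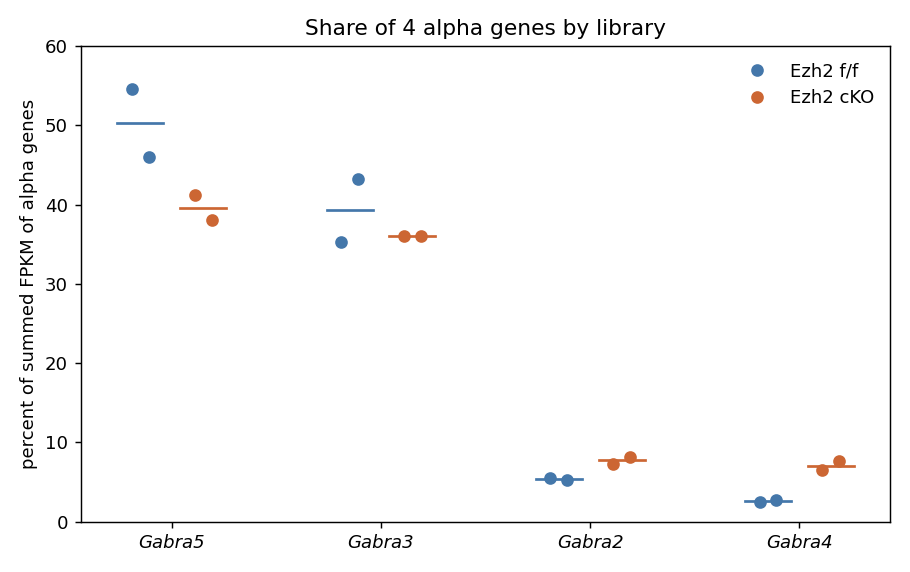
Share of Gabra2, Gabra3, Gabra4 and Gabra5 in the summed FPKM of all alpha genes, in percent, with 1 point per library (blue Ezh2 f/f, orange Ezh2 cKO) and short lines at group means. Gabra5 is lower in Ezh2 cKO (38% and 41.2%) than in Ezh2 f/f (46.0% and 54.5%), Gabra2 and Gabra4 are higher, and the points of Gabra3 overlap.

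Ratios between pairs of genes were also read in each library. The ratio of Gabra4 to Gabra2 FPKM was 0.453 and 0.518 in Ezh2 f/f against 0.896 and 0.935 in Ezh2 cKO, a log2 difference of 0.92. The ratio of Gabra5 to Gabra2 was 9.91 and 8.79 in Ezh2 f/f against 5.71 and 4.63 in Ezh2 cKO, a log2 difference of -0.86. That of Gabra3 to Gabra2 was 6.42 and 8.24 against 4.98 and 4.39 (log2 difference -0.64). In these pairs the gene that was low in Ezh2 f/f gained on the other without overlap of the groups. The ratio of Gabrb2 to Gabrb1 was 1.34 and 0.541 in Ezh2 f/f against 0.452 and 0.511 in Ezh2 cKO. Its log2 difference was -0.83, which was -0.17 when Ezh2 f/f replicate 1 was left out and -1.48 when Ezh2 f/f replicate 2 was. The ratio of Gabrd to Gabra4, genes whose products are partners, was 3.06 and 2.44 in Ezh2 f/f against 2.86 and 2.21 in Ezh2 cKO. These values overlapped (log2 difference -0.12, exact permutation p = 0.667), and the sign turned when Ezh2 f/f replicate 1 (0.04) or Ezh2 cKO replicate 2 (0.07) was left out.

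Genes that act with the receptor were read from lists in the same fit, where 34.7% of all tested genes were higher and 33.6% lower. Of 23 genes for clustering and trafficking of GABA-A receptors, 9 were higher and 8 lower, close to those shares, with a median log2 fold change of 0.01. Gphn, which encodes the scaffold gephyrin, rose from 467 and 462 to 941 and 1056 counts (log2 fold change 1.01, SE 0.11). Nsf, a trafficking ATPase, rose by 1.38 and Slitrk3, a synaptic adhesion gene, by 1.22 on the log2 scale. Lhfpl4, which encodes a partner of gamma-containing receptors at synapses, fell from 8279 and 8623 to 4942 and 4581 counts (log2 fold change -0.92, SE 0.09). Nlgn2, the neuroligin of inhibitory synapses, fell by 0.46, and Hap1, a transport adaptor, had 5306 and 9315 counts in Ezh2 f/f, far apart, against 3057 and 3063 (log2 fold change -1.37).

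For GABA itself, 5 of 9 genes of synthesis, packaging, uptake and breakdown were higher and 1 was lower (median log2 fold change 0.35), where 34.7% and 33.6% of all tested genes were. Gad1 (0.14, SE 0.10) and Gad2 (-0.07, SE 0.10), which make GABA, did not pass the test. Slc32a1, the vesicular transporter, rose by 0.72, the uptake transporter gene Slc6a11 by 0.85, and Abat, which breaks GABA down, by 0.86, while the transporter gene Slc6a13 fell by 0.57. Of 6 genes for the metabotropic GABA-B receptor and its auxiliary subunits, 5 were higher and 0 lower (median 0.69), with Gabbr1 at 0.52, Gabbr2 at 0.93 and Kctd16 at 1.82. This count was 3 with DESeq2, with limma on FPKM, with pan-neuron scaling or without Ezh2 cKO replicate 2, and 4 when any of the other libraries was left out. Of 8 genes of chloride transport, 1 was higher and 2 lower (median 0.02), and 3 were higher without Ezh2 f/f replicate 1 and 2 without the first Ezh2 cKO library. Slc12a5, the neuronal chloride exporter that sets the direction of the GABA-A current, rose from 1500 and 1614 to 4485 and 4474 counts (log2 fold change 1.43, SE 0.10). The importer gene Slc12a2 had a log2 fold change of -0.33 (SE 0.16, adjusted p = 0.0733 in edgeR) and did not pass, while Slc12a7 and Clcn2 fell by 1.04 and 0.78.

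**Figure D5:**
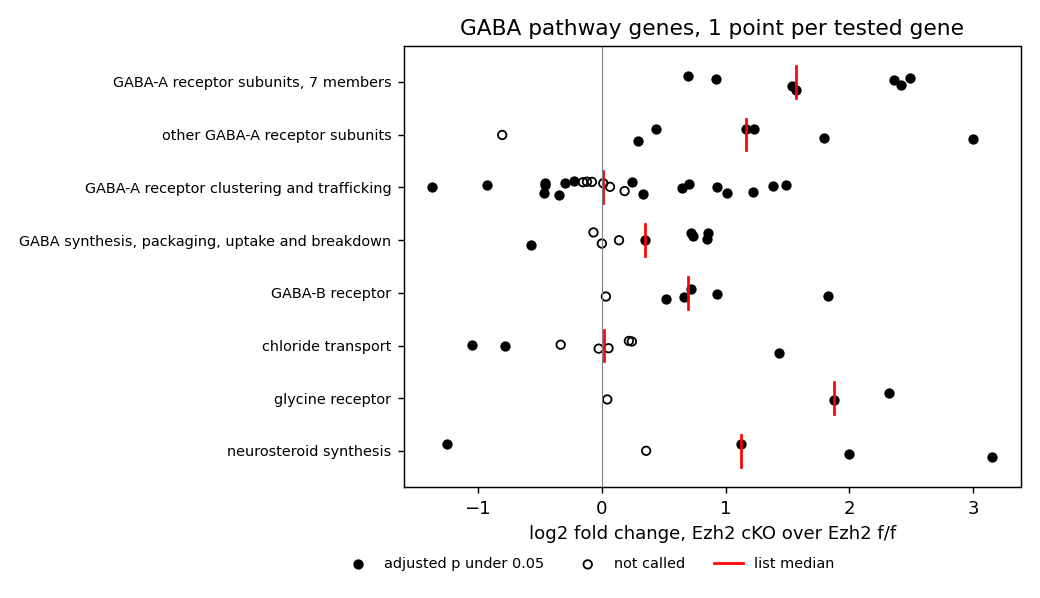
Log2 fold change of Ezh2 cKO over Ezh2 f/f for each tested gene of the GABA-related lists; filled points passed an adjusted p under 0.05, open points did not, red bars are list medians and the vertical scatter within a list has no meaning. The 7 genes lie between 0.70 and 2.49, whereas the clustering and trafficking genes spread to both sides of 0 around a median of 0.01.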

How the data were processed

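RNA-seq of 4 cortical libraries (2 Ezh2 f/f, 2 Ezh2 cKO) was analysed from 2 tables of 29224 genes. The authors deposited raw counts of reads per gene and FPKM values. Their own comparison columns (a mean signal, a ratio and its log2 value, and p-values), deposited in the same table, were not used. The submitters' processing notes name TopHat2 2.0.12, Bowtie2 2.2.3, HTSeq 0.6.0 and mm9. Strand setting and annotation are not given in the sources used here. No sample column was left out (0).

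Counts were filtered with filterByExpr (16793 genes left), scaled by TMM (factors 0.967 to 1.040) and tested with edgeR 4.0.16 (glmQLFit, glmQLFTest, with group alone in the model and a common dispersion whose root was 0.0953) in R 4.3.3. P-values were adjusted by Benjamini-Hochberg over all genes tested and called under 0.05. The standard error is the log2 fold change divided by the square root of its F statistic. All samples entered 1 fit. The tests were tried on simulated data with known changes in a small part of the genes, as many up as down. In the real data 34.7% of tested genes were higher and 33.6% lower, so that the trial cannot give the error rate here. At these depths a count of 3 was the limit of detection, for counting error only. FPKM served for shares and ratios, with exact permutation tests over libraries.

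Alternatives were DESeq2 1.42.0, its size factors, no filter, a mean of at least 50 counts, limma 3.58.1 on log2(FPKM + 1) or log2(FPKM + 0.1), a replicate block, scaling to pan-neuron or total counts, and each library left out. For ratios they were 0.1 added to FPKM, each library left out and CPM per length. CPM per length differs from FPKM only by a factor per library, so that it could not change a ratio. The shares were given no alternative. Promoters came from RefSeq on GRCm38.p6, and figures from matplotlib 3.10.9 in Python 3.11.15. Named were the 7 genes, other subunits, up to 4 called genes of each list per direction by p, and genes at a described step. Some genes that this rule names are counted in their lists and are not reported singly here. Tubb3 and Slc1a3 were taken from the marker lists. The genes and lists were chosen with earlier results of these data known.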

Additional observations from a re-analysis of the deposited data

How the results depend on the processing

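For the 7 genes the direction and the call held under all 13 alternatives, with the highest adjusted p at 0.0249, for Gabrb2. The range of log2 fold changes was widest for Gabrb2 (0.85 with limma on log2(FPKM + 1), which understates changes of low genes, to 2.04 without Ezh2 f/f replicate 1). The replicate numbers are not shown to pair animals. Deviations of same-numbered libraries correlated at 0.134. With 2 libraries per group both pairs give the same value by construction, so that it cannot settle a pairing. The fit with the replicate block called 7 of the 7 genes and 6 of the 7 other tested subunits higher, as without it. That fit changed no call among the named subunits and no list count by more than 1.5 times. The count of lower GABA synthesis genes was 0 with limma on log2(FPKM + 0.1) and 2 with pan-neuron scaling, and 0 to 1 with 1 library left out (0 without Ezh2 cKO replicate 2), in place of 1. The 5 higher GABA-B genes became 3 with DESeq2, with limma on log2(FPKM + 1) or log2(FPKM + 0.1) and with pan-neuron scaling, and 3 to 4 with 1 library left out. The 1 higher chloride transport gene became 2 with a mean of at least 50 counts or total counts, and 1 to 3 with 1 library left out (3 without the first Ezh2 f/f library, 2 without the first Ezh2 cKO library), and the 2 lower ones became 4 with pan-neuron scaling. The 2 higher glycine receptor genes became 1 with a mean of at least 50 counts and with limma on log2(FPKM + 1), where fewer genes were tested. Gabrg3 lost its call without Ezh2 cKO replicate 1 (0.40, adjusted p = 0.0699 in edgeR) and with limma on log2(FPKM + 0.1) (0.50, adjusted p = 0.0502). The log2 difference of the Gabrd to Gabra4 ratio ran from -0.30 to 0.07 with 1 library left out, with its sign reversed at 0.04 without Ezh2 f/f replicate 1 and at 0.066 when the second Ezh2 cKO library was left out. Except where a smaller number of genes tested shows it, the cause was not tested. With 1 library left in a group, that library is assumed to vary like those of the other group. Depth limits Gabrb2 most, at 45 to 223 counts.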

Other observations

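Glycine receptors, the other inhibitory chloride channels of the brain, were represented by 5 genes, of which 3 were tested. Of these 3, 2 were higher and 0 lower in Ezh2 cKO (median log2 fold change 1.87), where 34.7% and 33.6% of all tested genes were. Glrb, the beta subunit gene, was counted 218 and 234 times in Ezh2 f/f, against 794 and 976 times in Ezh2 cKO (log2 fold change 1.87, SE 0.14, adjusted p = 3.58e-08 in edgeR). Glra3 had 7 and 17 counts against 46 and 83 (log2 fold change 2.32, SE 0.43). Glra2, the alpha gene of the immature brain, had more counts than Glrb in Ezh2 f/f, fewer in Ezh2 cKO, and a log2 fold change of 0.05 (SE 0.10), which did not pass the test.

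Neurosteroids act on GABA-A receptors, those with the delta subunit above all. Of 7 genes for their synthesis 5 were tested, 3 were higher and 1 lower (median log2 fold change 1.12). Over all tested genes 34.7% were higher and 33.6% lower. Cyp11a1, which makes pregnenolone from cholesterol, was counted 11 and 13 times in Ezh2 f/f, against 112 and 118 times in Ezh2 cKO (log2 fold change 3.15, SE 0.29, adjusted p = 3.84e-07 in edgeR). Srd5a1, the 5-alpha reductase gene, rose from 182 and 150 to 402 and 369 counts (log2 fold change 1.12). Akr1c14, which makes the receptor-active steroids, had 4 and 1 counts in Ezh2 f/f, near the limit of detection, against 12 and 10. Star, a cholesterol carrier gene, fell from 241 and 288 to 111 and 127 counts (log2 fold change -1.25, SE 0.18).

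The tested gene with the profile closest to each of the 7, by Euclidean distance of log2 CPM centred on the mean of the 4 libraries, was Hmgcll1 for Gabra2 (0.033), Suox for Gabra3 (0.041), Herc3 for Gabra4 (0.10), Gm1043 for Gabra5 (0.025), Lactb2 for Gabrb1 (0.018), Pgm5 for Gabrb2 (0.049) and Fam131a for Gabrd (0.019). Over 4 libraries such a match reflects little more than a similar fold change, and shared regulation was not tested.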
